A study of Mus musculus with 7 samples.

Results

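The 10 genes described here encode the machinery that couples the electrical excitation of skeletal muscle to calcium release, and the store from which the calcium comes. They are the calsequestrin genes Casq1 and Casq2, the triadin gene Trdn, the release channel gene Ryr1, the voltage sensor genes Cacna1s and Cacng1, the calcium pump gene Atp2a1, its inhibitor gene Sln, and the junctophilin genes Jph1 and Jph2. They were chosen by name, and every probe set that the array's annotation pairs with them alone was taken, which gave 19 of the 45037 probe sets tested. Trdn had 6 probe sets, Ryr1, Sln, Jph1 and Jph2 had 2 each, and the other 5 genes had 1 each. A gene is represented below by its brightest probe set, the one with the highest mean over all samples, unless another is named.

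RNA came from myoblasts, the precursors of skeletal muscle fibres, of C57BL/6 mice and was hybridised to 7 Affymetrix arrays. The groups were Hmga2 KO, from HMGA2 -/- mice (4 samples, the males being replicates 1 and 3 and the females replicates 2 and 4), and wild type (3 samples, all female). No treatment was given in either group. The sources used here do not give the age of the mice, the part of Hmga2 that was deleted or the culture conditions, so how far the cells had differentiated is known only from their transcripts. The samples are labelled as biological replicates.

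In a muscle fibre the action potential runs along transverse tubules, where the voltage-sensing L-type calcium channel lies opposite the ryanodine receptor of the sarcoplasmic reticulum. The channel's movement opens the receptor, calcium held in the reticulum by calsequestrin flows out, and a calcium pump returns it afterwards. Junctophilins hold the 2 membranes together at this junction. Proliferating myoblasts have little of this apparatus, and most of it is made when they withdraw from the cell cycle and fuse into myotubes.

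Promoter sequences were at hand for 6 of the 10 genes, as windows of 300 bases on mouse build GRCm38.p6 (RefSeq) that run from 250 bases before to 50 bases after an annotated start. Those of both calsequestrin genes are shown because their groups did not overlap, and those of Jph2 and Ryr1 because they had the smallest differences. All are printed 5′ to 3′ in the direction of the gene. Capitals mark an E-box (CANNTG, the motif bound by MyoD and related factors) or a match to the MEF2 motif, each searched on both strands.
Casq1, chr1:172219846-172220145, minus strand: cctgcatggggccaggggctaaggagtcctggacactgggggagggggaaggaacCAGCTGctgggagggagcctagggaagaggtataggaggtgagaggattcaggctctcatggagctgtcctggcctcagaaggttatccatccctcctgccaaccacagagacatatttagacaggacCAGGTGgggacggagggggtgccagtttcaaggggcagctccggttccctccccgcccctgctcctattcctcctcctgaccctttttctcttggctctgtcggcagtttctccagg
Casq2, chr3:102086165-102086464, plus strand: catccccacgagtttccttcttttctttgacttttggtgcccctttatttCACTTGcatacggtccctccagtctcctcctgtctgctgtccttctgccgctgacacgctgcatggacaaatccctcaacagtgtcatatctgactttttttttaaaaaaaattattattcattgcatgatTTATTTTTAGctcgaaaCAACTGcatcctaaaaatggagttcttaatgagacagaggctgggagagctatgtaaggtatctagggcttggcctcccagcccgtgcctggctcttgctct
Jph2, chr2:163397944-163398243, minus strand: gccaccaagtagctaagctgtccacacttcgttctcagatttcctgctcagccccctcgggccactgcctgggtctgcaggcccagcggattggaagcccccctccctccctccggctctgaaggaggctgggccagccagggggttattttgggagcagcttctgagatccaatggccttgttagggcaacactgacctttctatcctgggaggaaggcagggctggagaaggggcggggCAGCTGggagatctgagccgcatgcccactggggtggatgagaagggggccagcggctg
Ryr1, chr7:29125102-29125401, minus strand: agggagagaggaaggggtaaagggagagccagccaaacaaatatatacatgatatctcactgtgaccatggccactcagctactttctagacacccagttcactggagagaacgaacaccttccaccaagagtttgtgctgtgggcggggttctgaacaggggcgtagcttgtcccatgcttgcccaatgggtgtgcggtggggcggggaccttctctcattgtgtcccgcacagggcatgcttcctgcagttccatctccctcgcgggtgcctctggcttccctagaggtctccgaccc
An E-box lay in the windows of 5 of the 6 genes, the exception being Ryr1, and in 72.3% of all 32851 promoter windows. The E-box CAGCTG, a form contained in the first motif, lay in those of Casq1, Jph2, Atp2a1 and Cacna1s, 4 of 6 genes, and in 16.3% of all windows. A MEF2 match was present in Casq2 alone of the 6 and in 3.19% of all windows. The serum response motif CArG was found in 0 of the 6 and in 1.63% of all windows, and the motif CATTCC in that of Cacna1s alone and in 14.7% of all windows. Jph2, whose level hardly differed between the groups, and Casq1, whose level differed most, both carried the CAGCTG motif. Any link between a motif and the differences was not tested, and only 6 of the 10 genes had a window.

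The targeted gene checked the labels. Hmga2 had intensities of 85.7 to 104 in the 4 Hmga2 KO samples, against 9998 to 12800 in the 3 wild type samples, on its brightest probe set (exact two-sided permutation p = 0.0286, the smallest that 35 splits allow). The median of every array was 150 units. As a background range, the values of 9 probe sets of Uty, Kdm5d and Eif2s3y, genes of the Y chromosome, were taken from the 5 females, and these ran between 33.9 and 58.2. All 7 samples lay above this range for 18 of the 19 probe sets. The exception was the dim probe set of Sln, with 48.8 to 63.7 in Hmga2 KO and 57.8 to 71.9 in wild type. The myoblast markers Pax7 and Myod1 had mean log2 values of 12.54 and 13.85 in Hmga2 KO, against 12.44 and 13.91 in wild type. The differentiation marker Myog, 14.06 in Hmga2 KO and 14.23 in wild type, was likewise bright in both groups. RNA integrity, read from the 3'/5' ratio of the Actb controls, was 1.64 to 1.74 in Hmga2 KO and 1.61 to 1.94 in wild type, where 1.94 belonged to replicate 2.

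All 10 genes had a lower mean in Hmga2 KO than in wild type, by 0.06 to 1.44 on the log2 scale, but none of the differences passed the test. The calsequestrin genes and Sln lay lowest, at 37% to 53% of their wild type level, and in these 3 genes every Hmga2 KO sample was below every wild type sample. The junctophilin gene Jph2 and the release channel gene Ryr1 stayed within 1.17-fold of wild type. Of the 19 probe sets, 18 had a negative difference, and 0 passed an adjusted p of 0.05 (limma, smallest adjusted p = 0.334), where 0.0178% of all probe sets passed. At an unadjusted p under 0.05 there were 4, all lower, against 7.9% of all probe sets called lower at that threshold. A 2-fold or larger deficit was found in 2, Casq1 and the brighter probe set of Sln, against 0.18% of all probe sets. Of the 19 probe sets, 3 had groups that did not overlap, all lower in Hmga2 KO, a pattern found in 7.71% of all probe sets. The median difference of the 10 genes was -0.76 on the log2 scale, and that of all probe sets was -0.05. This median was -0.44 without Hmga2 KO replicate 1 and -0.48 without wild type replicate 2. The count at an unadjusted p under 0.05 was 13 without Hmga2 KO replicate 2, all lower, against 10.3% of all probe sets in that fit, and 7 without wild type replicate 1, all lower, against 10.1%. It was 3 or 4 when any other single sample was left out. In bulk samples such as these, fewer cells that express a gene and less of its RNA per cell cannot be told apart.

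**Figure D1:**
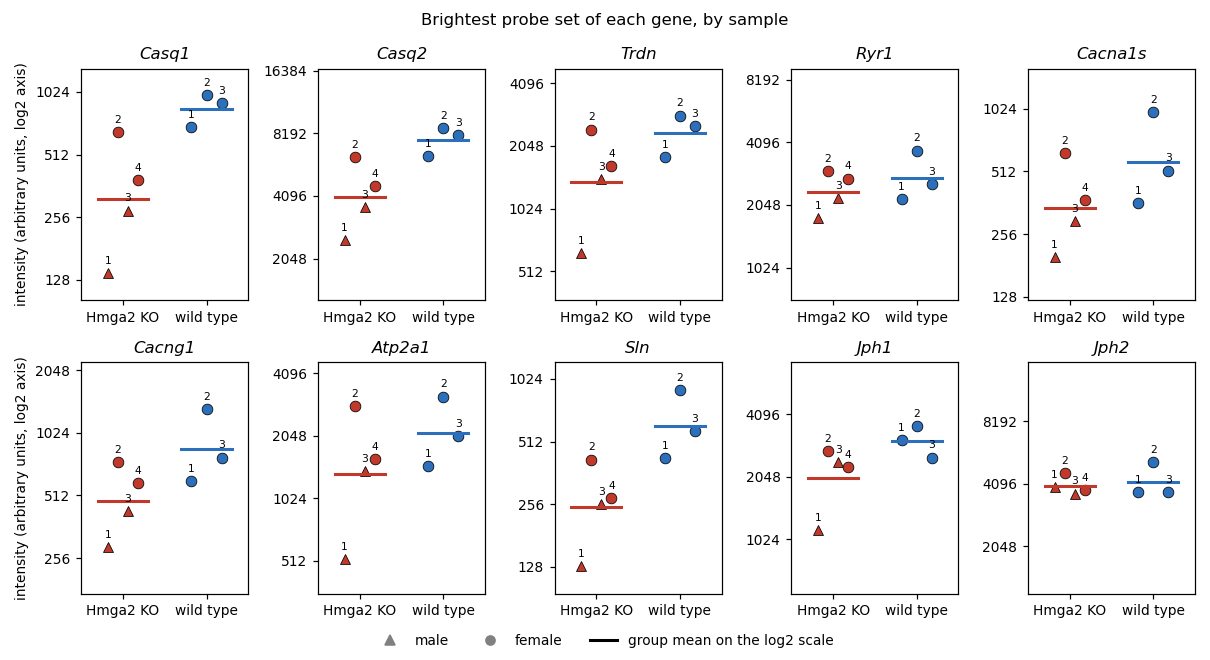
Intensity of the brightest probe set of each of the 10 genes (log2 axis, arbitrary units, all panels spanning the same ratio) in the Hmga2 KO samples (red, left) and the wild type samples (blue, right), with replicate numbers, triangles for males, circles for females and a bar at the group mean on the log2 scale. The groups do not overlap for Casq1, Casq2 and Sln, and Hmga2 KO replicate 1 is the lowest of the 7 samples in every panel but that of Jph2.

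Among the proteins of the store, calsequestrin binds calcium in the lumen of the sarcoplasmic reticulum. Casq1 is the isoform of fast skeletal fibres, and Casq2 that of the heart, of slow fibres and of developing muscle. Casq1 (probe set 1422598_at) had intensities of 138, 656, 275 and 385 in Hmga2 KO replicates 1 to 4, against 694, 984 and 905 in wild type replicates 1 to 3. The highest Hmga2 KO sample, replicate 2, came close to the lowest wild type sample, whereas replicate 1 was 7.14-fold below the highest wild type sample. The difference was -1.44 on the log2 scale (95% interval -2.39 to -0.49, adjusted p = 0.343, limma), a 2.72-fold lower mean in Hmga2 KO. In the same order of samples, Casq2 (1422529_s_at) had 2510, 6308, 3634 and 4577 in Hmga2 KO, against 6384, 8658 and 8014 in wild type. The 2 nearest samples of the groups, at 6308 in Hmga2 KO and 6384 in wild type, almost met. Its difference was -0.92 (95% interval -1.52 to -0.32, adjusted p = 0.338, limma), 1.89-fold lower in Hmga2 KO. Both isoforms thus ranked the 7 samples alike, with Hmga2 KO replicate 1 lowest and wild type replicate 2 highest. The suffix of the Casq2 probe set marks probes shared by more than 1 transcript.

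Triadin anchors calsequestrin to the release channel. On its brightest probe set (1426142_a_at) Trdn had 626, 2454, 1423 and 1633 in Hmga2 KO, against 1813, 2865 and 2552 in wild type. Hmga2 KO replicate 2 lay inside the wild type range, and the other 3 Hmga2 KO samples lay below it. The difference was -0.78 (95% interval -1.65 to 0.08, adjusted p = 0.463, limma), and -0.41 without Hmga2 KO replicate 1. The other 5 probe sets of Trdn had differences between -0.85 and -0.11. All 6 had their lowest sample in Hmga2 KO replicate 1, and Hmga2 KO replicate 2 lay above wild type replicate 1 in each. The smallest difference, -0.11, was that of 1426134_at, a dim probe set with 108 to 224 in Hmga2 KO and 141 to 222 in wild type.

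Ryr1 encodes the skeletal ryanodine receptor, the channel through which the calcium leaves the store. Its 1427306_at had 1771, 2967, 2203 and 2743 in Hmga2 KO, against 2195, 3739 and 2586 in wild type. The groups overlapped over most of their range, with 3 of 4 Hmga2 KO samples above the lowest wild type sample. The difference was -0.22 (95% interval -0.71 to 0.26, adjusted p = 0.715, limma), and that of the other probe set was -0.25 (95% interval -0.86 to 0.36). On the first of these probe sets it was -0.0054 without wild type replicate 2, -0.08 without Hmga2 KO replicate 1 and -0.39 without wild type replicate 1. The intervals of both probe sets do not show that the level was equal, since they still hold a difference of -0.71.

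Cacna1s encodes the pore and voltage sensor of the L-type channel, and Cacng1 its gamma subunit. Cacna1s (1420442_at) had 199, 629, 296 and 372 in Hmga2 KO, against 360, 991 and 517 in wild type. Wild type was itself spread 2.75-fold here, and 2 of the 4 Hmga2 KO samples lay inside its range. The difference was -0.73 (95% interval -1.64 to 0.18, adjusted p = 0.507, limma), and it was -0.33 without wild type replicate 2 and -0.47 without Hmga2 KO replicate 1. Cacng1 (1422813_at) had 290, 741, 431 and 587 in Hmga2 KO, against 602, 1331 and 779 in wild type. Only replicate 2 of the Hmga2 KO samples entered the wild type range. The difference was -0.82 (95% interval -1.57 to -0.07, adjusted p = 0.401, limma), and -0.50 without wild type replicate 2.

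Atp2a1 encodes SERCA1, the pump of fast fibres that returns calcium to the store, and Sln encodes sarcolipin, a small membrane protein that inhibits the pump. Atp2a1 (1419312_at) had 520.2, 2828, 1382 and 1587 in Hmga2 KO, against 1461, 3157 and 2033 in wild type. Replicates 2 and 4 of the Hmga2 KO group lay inside the wild type range. The gene had the widest spread among the Hmga2 KO samples, an SD of 1.01 on the log2 scale, so its difference of -0.65 was the least precise (95% interval -1.74 to 0.44, adjusted p = 0.621, limma). It was -0.20 without Hmga2 KO replicate 1, -0.36 without wild type replicate 2 and -1.01 without Hmga2 KO replicate 2. Sln (1420884_at) had 129, 419, 257 and 274 in Hmga2 KO, against 427, 905 and 577 in wild type. As with Casq2, Hmga2 KO replicate 2 and wild type replicate 1 were near each other without crossing. The difference was -1.28 (95% interval -2.10 to -0.46, adjusted p = 0.334, limma), 2.43-fold lower in Hmga2 KO. The other Sln probe set, at background in part of the samples, had a difference of -0.20.

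Junctophilins tie the reticulum to the surface membrane. Jph1, the form typical of skeletal muscle, had 1131, 2726, 2410 and 2269 in Hmga2 KO, against 3073, 3601 and 2532 in wild type (1438428_at). Replicates 2, 3 and 4 of the Hmga2 KO group lay close together, between 2269 and 2726, and replicate 1 stood below them. The highest of them, replicate 2, lay above the lowest wild type sample. The difference was -0.58 (95% interval -1.20 to 0.03, adjusted p = 0.449, limma), with -0.38 on its dim probe set. On the brightest one it was -0.30 without Hmga2 KO replicate 1. Jph2, the form shared with the heart, had 3963, 4621, 3670 and 3805 in Hmga2 KO, against 3738, 5183 and 3730 in wild type (1455404_at). Its samples spanned 1.41-fold in all, the narrowest range among the 10 genes, and the groups were interleaved. The difference was -0.06 (95% interval -0.38 to 0.26, adjusted p = 0.896, limma). Its other probe set had a positive difference of 0.09, the only one of the 19. Without wild type replicate 2 the difference on the brightest probe set was 0.10, and with quantile normalization it was 0.0036, so Jph2 had no settled direction.

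**Figure D2:**
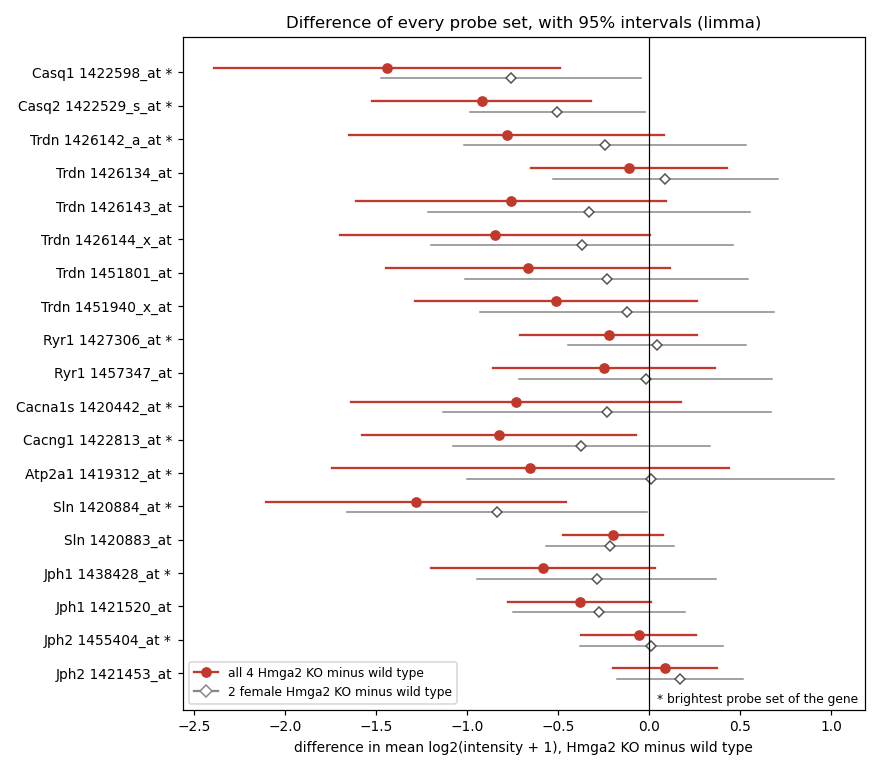
Difference in mean log2(intensity + 1) of each of the 19 probe sets, for all 4 Hmga2 KO samples minus wild type (red circles) and for the 2 female Hmga2 KO samples minus wild type (open diamonds), with 95% intervals from limma and a star at the brightest probe set of each gene. Intervals that exclude 0 belong to Casq1, Casq2, Cacng1 and the brighter probe set of Sln over all samples, and to the same genes without Cacng1 in females.

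The Hmga2 KO samples also differed among themselves. Relative to the mean of the 7 samples, the 10 genes averaged -1.13, 0.36, -0.38 and -0.14 on the log2 scale in Hmga2 KO replicates 1 to 4, against 0.07, 0.85 and 0.36 in wild type replicates 1 to 3. Hmga2 KO replicate 2 therefore stood at the level of wild type replicate 3. Replicate 1 was the lowest of all samples in 16 of the 19 probe sets, where 20.2% of all probe sets have their lowest value in it. Wild type replicate 2 was the highest in 14 of 19, against 20.5% of all probe sets. This sample also had the highest Actb ratio, 1.94, whose part in the result was not tested. Without these 2 samples, an alternative chosen after the data were seen, the median difference of the 10 genes was -0.22, with 7 of 10 below 0. That of all probe sets was -0.05. Casq1 then had -0.95, Casq2 -0.60 and Sln -0.68.

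**Figure D3:**
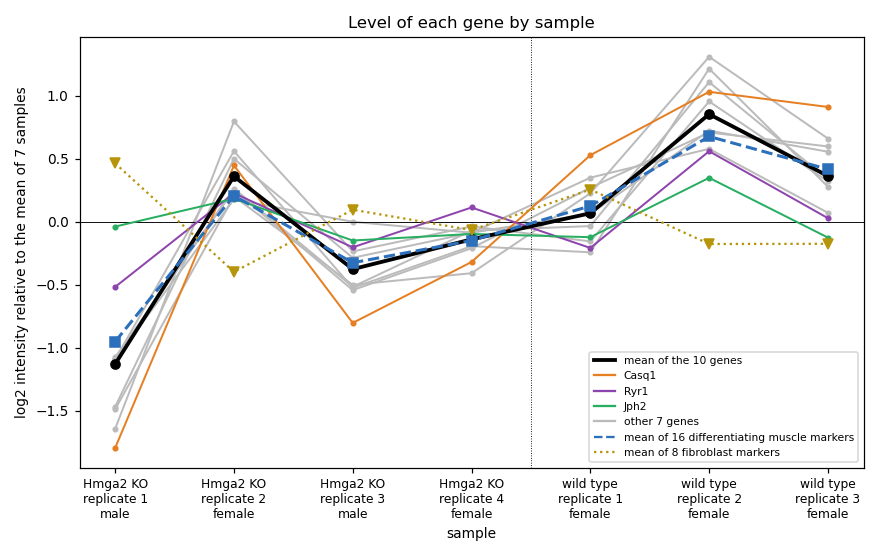
Log2 intensity of each of the 10 genes in each sample, relative to the gene's own mean over the 7 samples, with the mean of the 10 genes (black), of 16 markers of differentiating muscle (blue dashes) and of 8 fibroblast markers (dotted); lines only join the points of 1 gene or list. The black line is at -1.13 in Hmga2 KO replicate 1 and 0.36 in Hmga2 KO replicate 2, and at 0.85 in wild type replicate 2, and Jph2 (green) stays near 0 throughout.

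Sex was spread unevenly over the groups, so Hmga2 KO males were set against Hmga2 KO females in a fit of 3 groups. The 10 genes were all lower in the males, with a median difference of -0.89, and 0 of 19 probe sets passed (limma, smallest adjusted p = 0.594), where 0.0511% of all did. At an unadjusted p under 0.05 there were 8, all lower, against 2.86% of all probe sets. In 9 of 19 both males lay below both females, against 21.5% of all probe sets. Casq1 had -1.36 (95% interval -2.15 to -0.58) and Atp2a1 -1.32 (95% interval -2.42 to -0.22), and Trdn had -1.08. The males were not alike, since the median over the 10 genes against the mean of the females was -1.23 for replicate 1 and -0.53 for replicate 3. With 2 samples of each sex, sex and the single mouse cannot be told apart.

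The female Hmga2 KO samples were set against wild type in the same fit of 3 groups, in which the males also enter the estimate of the spread. The 2 female Hmga2 KO samples minus wild type gave a median of -0.26 over the 10 genes, with 7 below 0, against -0.03 over all probe sets. Of the 19 probe sets, 0 passed (limma, smallest adjusted p = 0.755), where 0.0133% of all did. A fit of the 5 females by themselves gave the same differences, again with 0 of 19 passing (limma, smallest adjusted p = 0.738), and 10 probe sets passed in all, against 6 in the fit of 3 groups. In the fit of 3 groups, 3 had an unadjusted p under 0.05, all lower, against 3.99% of all probe sets, and the same 3, those of Casq1, Casq2 and Sln, had groups that did not overlap, against 14.2%. The difference was -0.76 for Casq1, -0.50 for Casq2 and -0.84 for the brighter probe set of Sln. It was 0.01 for Atp2a1 (95% interval -1.001 to 1.01), 0.04 for Ryr1 (95% interval -0.44 to 0.53) and 0.01 for Jph2 (95% interval -0.38 to 0.40). Whether the difference depends on sex was not tested, as there is no male wild type sample.

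Other genes of coupling and calcium handling were taken from a list of 59, of which 53 were measured. Of these 53, 39 had a lower mean in Hmga2 KO, and 0 passed the adjusted test by limma. Their median difference was -0.12. That of all 18193 genes was -0.07, with the middle 50% between -0.18 and 0.04. Over 50% of all genes thus had a lower mean as well, so lower means were common over the whole array. At an unadjusted p under 0.05, 15 of the 53 were lower and 2 were higher. Over all probe sets, with dim ones and several per gene included, 7.9% were lower and 3.73% higher. Srl, sarcalumenin, another calcium-binding protein of the reticulum, had 2422, 5858, 3691 and 4807 in Hmga2 KO, against 6149, 8799 and 6429 in wild type. Its groups did not overlap (difference -0.82, adjusted p = 0.355, limma). This pattern, with Hmga2 KO lower, was found in 3 of the 53 genes, against 7.71% of all probe sets. The groups of 1 of the 53, Jph3, did not overlap with Hmga2 KO higher. Sypl2, a mitsugumin, a membrane protein of the triad junction, had 88.0 to 297 in Hmga2 KO and 245 to 320 in wild type (difference -0.98). Slc8a3, a sodium-calcium exchanger, had a difference of -0.72, Stac2, of the family of adaptors that bind the L-type channel, -0.49, and Fkbp1b, a protein that binds ryanodine receptors, -0.40. The 5 genes with the smallest p in the other direction were dim. Ryr2, the cardiac ryanodine receptor, had 82.9 to 106 in Hmga2 KO and 64.7 to 86.0 in wild type (difference 0.40, adjusted p = 0.361, limma). Jph3, a junctophilin of the brain, had 71.3 to 84.1 in Hmga2 KO and 51.8 to 65.2 in wild type (difference 0.35). Next came Atp2b4, a calcium pump of the surface membrane, with 0.31, Cacna1c, the cardiac L-type channel, with 0.24, and Ryr3 with 0.11.

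**Figure D4:**
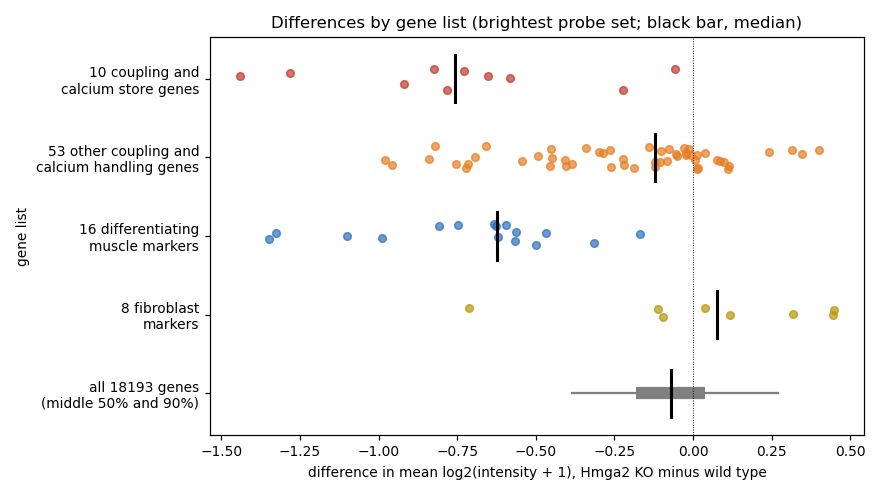
Difference in mean log2(intensity + 1), Hmga2 KO minus wild type, of the brightest probe set of each gene in 4 lists, with the middle 50% and 90% of all 18193 genes in grey and a black bar at each median. The medians are -0.76 for the 10 genes described here, -0.12 for 53 other coupling and calcium handling genes, -0.62 for 16 differentiating muscle markers, 0.08 for 8 fibroblast markers and -0.07 for all genes.

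The mean of the differentiating muscle markers ranked the 7 samples in the same order as the mean of the 10 genes. All 16 of them, among them Myh3, Acta1, Tnnt3 and Ttn, had a lower mean in Hmga2 KO, with a median difference of -0.62, 15 of the 16 had their lowest value in Hmga2 KO replicate 1, and 15 had their highest in wild type replicate 2. By limma 0 of them passed the adjusted test, and 10 were lower at an unadjusted p under 0.05, against 7.9% of all probe sets. Their summed intensity was 50131, 102996, 74756 and 82568 in Hmga2 KO replicates 1 to 4, against 91654, 126927 and 106331 in wild type replicates 1 to 3. None of them was at background. Summed over 8 fibroblast markers it was 13679 to 19856 in Hmga2 KO, highest in replicate 1, and 13166 to 14739 in wild type. Most of the sum in Hmga2 KO replicate 1 came from Fn1, with 8472, and Col3a1, with 8255. Of these 8, 3 had a lower mean in Hmga2 KO, and the median difference was 0.08. The part of either marker list in the differences of the 10 genes was not tested. Of 8 cardiac markers, looked at because Casq2 and Jph2 are also cardiac genes, Myl7 lay within the background range in all samples. Nkx2-5 had 46.8 to 57.4 in Hmga2 KO and 52.3 to 58.7 in wild type. Nppa had 56.0 to 56.9 in Hmga2 KO and 59.9 to 63.5 in wild type. The sum of the 8 was 1017 to 1232 in Hmga2 KO and 1086 to 1244 in wild type. Much of it came from Gata4, with 496 to 694 in Hmga2 KO and 536 to 647 in wild type. By limma 0 fibroblast and 0 cardiac markers passed the adjusted test. At an unadjusted p under 0.05, 1 of 8 fibroblast markers, the dim Dcn, was higher. Of the 8 cardiac markers 1 was lower and 1 higher at that threshold, against 7.9% of all probe sets lower and 3.73% higher.

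Genes whose pattern over the 7 samples was like the mean of the 10 were sought among 9632 genes with a mean log2 value of at least 8. Likeness was measured by the root mean square difference of centred log2 values. The 10 genes and the list of 59 other coupling and calcium handling genes were left out of this search. How near those on that list lay was therefore not ranked. The nearest were Plpp7 (0.07), Smpx (0.08), a small protein of striated muscle, Acta1 (0.10), the skeletal alpha-actin, Cobl (0.10), a protein that nucleates actin filaments, and Rab40b (0.10), a small GTPase, against a median of 0.56. Plpp7 had 130.3, 376, 199.7 and 262 in Hmga2 KO, against 283, 486 and 332 in wild type. By the same measure Cacng1 (0.13) and Casq2 (0.15) were nearest to that mean among the 10 genes, and Casq1 (0.42) and Jph2 (0.51) farthest from it. Casq1 ran from -1.80 to 1.03 around its mean, a wider range than the mean of the 10 genes, and Jph2 from -0.15 to 0.35.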

How the data were processed

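Per the labels' protocols, biotin-labelled cRNA was made from total RNA by the standard Affymetrix procedure. The authors deposited probe set intensities on a linear scale, scaled so that each of the 7 arrays has a median of 150. The sources used here do not name the summarization, background correction or software.

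Values were used as log2(intensity + 1) with no further normalization, and every difference is on that scale. The annotation pairs 34945 probe sets with 1 gene, 932 with several and 9160 with none, besides 64 controls that were left out. All 10 symbols were found among RefSeq genes of GRCm38.p6. The array names no build, so the only coordinates given are those of the promoter windows.

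Groups were taken from the titles. All 45037 probe sets were fitted with lmFit and eBayes of limma 3.58.1 (R 4.3.3) without covariates, with Benjamini-Hochberg adjustment over all of them and a threshold of 0.05. A fit of 3 groups gave the contrasts by sex. Tables were made with pandas 2.3.3 in Python 3.11.15. The fit was tested on simulated data. The number of arrays limits precision.

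The members and lists were chosen with earlier results of these data known. The text names all 10 members, Hmga2, the 5 other coupling or calcium genes with the smallest p in each direction, and the 5 genes of nearest pattern outside the members and that list. Markers named as examples were chosen after their values were seen. The alternatives tried were a sex term, the females by themselves, a block for the replicate number, 1 sample left out at a time, quantile normalization, equal medians, a filter on the dimmest 40% of probe sets, a pseudocount of 16, 1 probe set per gene, array weights, a prior that is trended and robust, and an adjusted p of 0.1. A fit without both wild type replicate 2 and Hmga2 KO replicate 1 was added after the data were seen.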

Additional observations from a re-analysis of the deposited data

Results flagged for a closer look

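None of the 19 probe sets of the 10 genes had a sample that stood apart from the other Hmga2 KO samples by the gap criterion, although replicate 1 was often the lowest. The criterion was met by 1 dim probe set of Hmga2 (1446196_at), where Hmga2 KO replicate 1 had 36.5 and the other 3 Hmga2 KO samples 45.3 to 47.1, a gap of 0.848 of the group's range. All 4 values lie within the background range, and 4.76% of all probe sets have such a gap.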

How the results depend on the processing

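Over all probe sets, 8 passed between Hmga2 KO and wild type, and this count was 4 to 34 when 1 sample was left out (34 without Hmga2 KO replicate 2, 4 without wild type replicate 3, 5 without wild type replicate 1), 5 of 18193 genes with 1 probe set per gene, 13 with a trended and robust prior and 15 at an adjusted p of 0.1. It was 47 without both wild type replicate 2 and Hmga2 KO replicate 1, where the median of the 10 genes was -0.22. Leaving out 1 sample gave a median of -1.02 to -0.44, and 0 member probe sets passed each time. With sex as a covariate, and equally in females alone, Atp2a1 had 0.0067, Jph2 0.0096 and Ryr1 0.043, signs opposite to those over all samples. Jph2 also turned positive with quantile normalization (0.0036) and, in a range of -0.138 to 0.0988 over single samples left out, without wild type replicate 2, and without both samples named above Atp2a1 had 0.0925, Jph2 0.103 and Ryr1 0.135. The cause was not tested. Several of the 18 alternatives were not separate checks of direction. The filter on dim probe sets, 1 probe set per gene and the trended and robust prior left every difference as in the main fit. The sex term gave the differences of females alone, and the replicate block those without Hmga2 KO replicate 4. The 18 include the fit without both samples named above, chosen after the data were seen, with its reversals of Atp2a1, Jph2 and Ryr1. They leave out the adjusted p of 0.1, which changes no difference. Of the 180 values of the 10 genes under all 18 alternatives, 167 kept direction and side of the threshold, 11 reversed, and 2 passed. Those 2 came with the replicate block, where 84 probe sets passed and 2 of them were members, Sln (-1.33, adjusted p = 0.0268, limma) and Cacng1 (-0.92, adjusted p = 0.0426, limma), and 13 of 19 were lower at an unadjusted p under 0.05, against 6.32% of all probe sets. Whether the replicate numbers pair the samples cannot be told from these data. Deviations from the group means of same-numbered samples correlated at 0.23, 0.31 and -0.17 for numbers 1 to 3. Wild type replicates 1 and 2 correlated best with their own number, and wild type replicate 3 with another. Deviations within a group sum to 0, so these correlations cannot decide it. For female Hmga2 KO against wild type, 6 probe sets passed, and 3 to 14 when a sample was left out (14 without wild type replicate 2, 3 without Hmga2 KO replicate 2). The Hmga2 difference was -7.00 to -6.82 without 1 sample, where the exact permutation p cannot go below 0.0667 or 0.1. Probe sets near background have understated differences.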

Other observations

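Lists for other cell types that a muscle preparation could hold were summed over their members. The summed intensity of 6 smooth muscle markers was 18198 to 23009 in Hmga2 KO and 20016 to 27235 in wild type. Most of this sum came from Acta2, with 11058 to 14976 in Hmga2 KO and 11882 to 15908 in wild type. Des, another of the 6, is also among the myoblast markers. Cnn1 was dim, with 38.7 to 73.1 in Hmga2 KO and 34.3 to 46.3 in wild type. So was Myh11, with 99.5 to 124 in Hmga2 KO and 95.1 to 122 in wild type. For 4 adipocyte markers the summed intensity was 371 to 511 in Hmga2 KO and 411 to 544 in wild type. For 5 endothelial markers it was 342 to 368 in Hmga2 KO and 367 to 424 in wild type, with Tek within the background range throughout. It was 418 to 423 in Hmga2 KO and 415 to 429 in wild type for 5 leukocyte markers, and 126 to 147 in Hmga2 KO and 133 to 140.0 in wild type for 2 Schwann markers. Of 8 myoblast markers, 6 had a lower mean in Hmga2 KO, with a median difference of -0.20, against -0.07 over all 18193 genes. In these 6 lists 0 genes passed the adjusted test by limma, and at an unadjusted p under 0.05 3 of the 8 myoblast markers and 1 of the 6 smooth muscle markers were lower, against 7.9% of all probe sets. Tnni3, the cardiac troponin I gene, was the cardiac marker with a positive difference, 0.51 on the log2 scale, with mean log2 values of 6.69 in Hmga2 KO and 6.18 in wild type (adjusted p = 0.262, limma), and Myl2 had -0.39, with 6.73 in Hmga2 KO and 7.13 in wild type. Both were chosen after their values were seen.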
